A study of Mus musculus with 18 samples.

Results

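The 10 genes described here were chosen by symbol because their products control the passage from G1 into S phase: the cyclins Ccnd1, Ccnd2, Ccnd3, Ccne1 and Ccne2, the kinases Cdk2, Cdk4 and Cdk6, the CDK inhibitor Cdkn1b (p27) and the retinoblastoma gene Rb1. The choice was made with earlier results of these data known, so counts of the set beside all genes are descriptive. Of these 10 genes, 9 had a row with that symbol among the 15307 features measured, called genes below, of which 9787 had a name. Ccnd2 had no row of that name and was not analysed here, and whether a feature without a name holds it was not tested. The 9 genes were followed in 18 libraries of GTML cells, a medulloblastoma line from mice in which a human MYCN transgene under Glt1-driven, tetracycline-responsive control is expressed in neural progenitors of the hindbrain. All groups carry this MYCN overexpression and grew in neurobasal medium with B27, EGF and bFGF. Treatment lasted 3 h, with DMSO as the control, Rapalink-1 at 50 nM and rapamycin at 5 nM, and each treatment had 3 replicates of ribosome footprints, the mRNA pieces shielded by translating ribosomes, and 3 of total RNA. Rapamycin inhibits the kinase complex mTORC1 allosterically, and Rapalink-1 links a rapamycin-like part to a blocker of its ATP site. The labels give a single line and do not say whether replicates were separate cultures, so p-values measure the spread between these samples, which may be technical.

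In G1, mitogens raise the D-type cyclins, which activate CDK4 and CDK6. These kinases phosphorylate RB, and cyclin E with CDK2 adds to this, so that E2F factors are released and switch on genes of DNA replication. p27 binds and inhibits cyclin-CDK complexes, above all those of CDK2. mTORC1 acts on translation through S6K and through the 4E-BP proteins, which hold back the cap-binding factor eIF4E, and cyclin D1 is a textbook example of an mRNA whose translation depends on eIF4E.

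Levels are given as CPM, reads scaled to a common library size with TMM factors, which makes the libraries of an assay comparable for 1 gene but not 1 gene with another, because CPM is not corrected for length. The libraries held 6788365 to 13300292 reads of RNA and 7692625 to 14150068 of footprints, and the 9 genes had between 99 and 4970 reads each per library. No spike-in is recorded, so every change is relative to the rest of the library. A gene was called higher or lower when the adjusted p of edgeR's quasi-likelihood test (Benjamini-Hochberg over all genes tested) was under 0.05, and all 9 genes passed the count filter. Of the markers checked against the labelled cell type, 4 of 5 for neural progenitors and 3 of 5 for the granule neuron lineage had a row, none of them at 0. The 14 markers of 4 other cell types had no row of that name and were not analysed here. The summed progenitor markers held 252 to 258 CPM of RNA with DMSO, 320 to 330 with Rapalink-1 and 262 to 269 with rapamycin, and 414 to 427, 224 to 226 and 393 to 408 CPM of footprints. Vim alone carried both moves, with mean RNA of 173, 241 and 181 CPM and mean footprints of 328, 127 and 307 CPM, while the other 3 (Nes, Slc1a3 and Fabp7) summed to 77.5 to 85.2, 82.1 to 89.7 and 82.2 to 87.2 CPM of RNA and to 88.3 to 99.0, 93.7 to 100 and 84.3 to 95.4 CPM of footprints. The granule lineage markers summed to 186 to 205, 214 to 225 and 214 to 226 CPM of RNA and to 339 to 373, 526 to 571 and 421 to 438 CPM of footprints, in the same order. Their part in the results below was not tested, and in bulk libraries fewer cells of a type and less RNA per cell cannot be told apart.

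With Rapalink-1, footprints fell on all 4 cyclins measured and rose on Cdkn1b. The cyclins' footprints came to between 0.42 and 0.53 of the DMSO level, and those of Cdkn1b to 2.0 times that level. Footprints of the kinases moved little: Cdk4 fell slightly, and Cdk2 and Cdk6 did not pass the test. Rb1, which encodes no kinase, did not pass either. In all, 6 of the 9 genes were called, 1 higher and 5 lower, while 53.7% of all genes tested were called in that comparison, 25.7% higher and 28% lower. The 3 values of each group did not overlap for 7 of the 9, against 58.7% of all genes. The share of genes called is thus near the background, and the median change was -0.20 over the 9 genes and 0.01 over all genes. Scaled by library totals without TMM, which moved the median of all genes by 0.27, the split was 4 higher and 4 lower. The 4 cyclins stayed among the lower ones. That scaling called 6987 of the 11281 genes tested, with a median of 0.28.

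**Figure D1:**
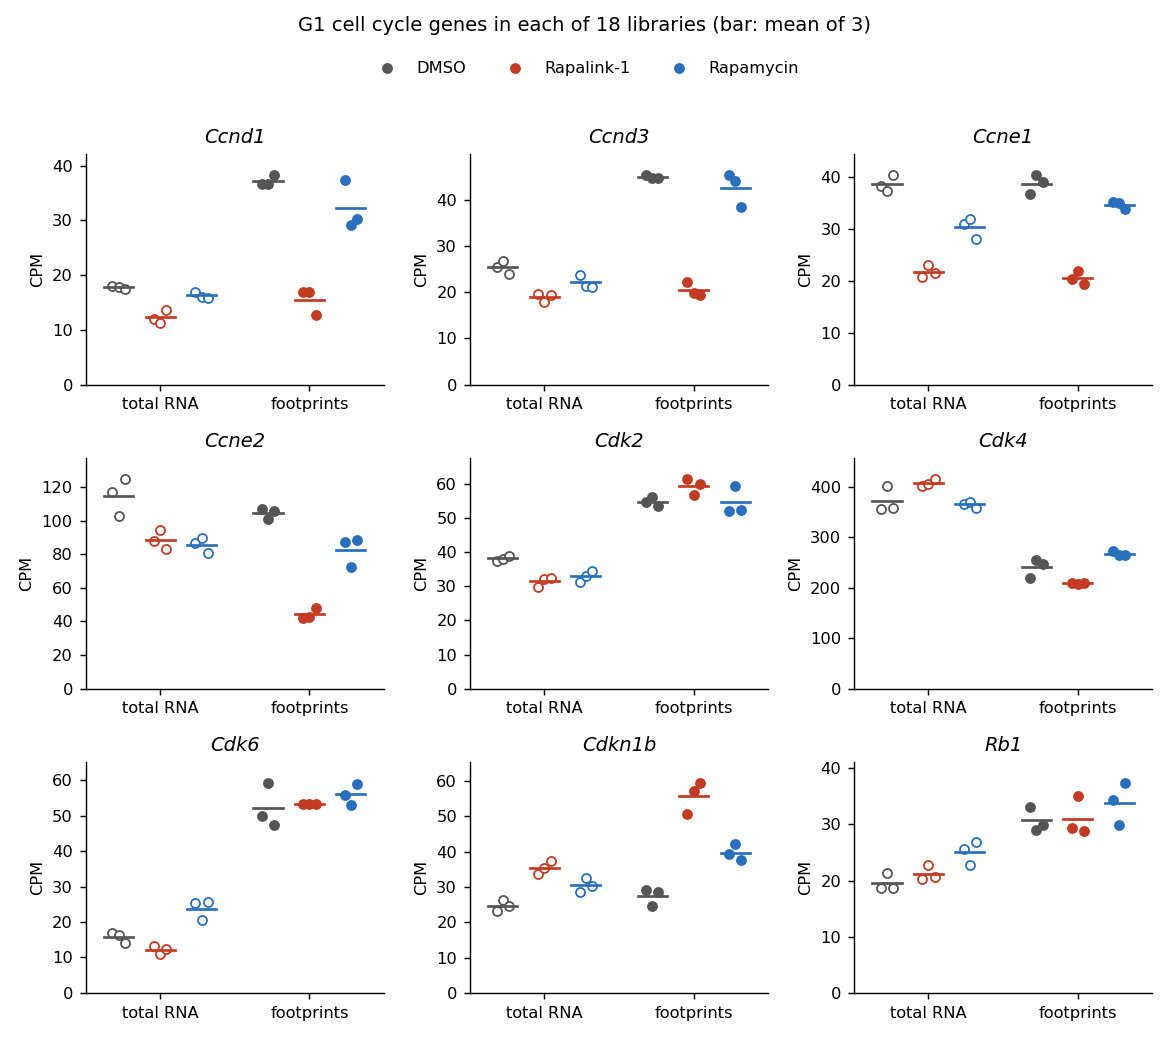
CPM of the 9 genes in each of the 18 libraries. The vertical axis starts at 0 and differs between panels, open points are total RNA, filled points are footprints, colours are treatments and bars are means of 3 replicates. Footprints of the 4 cyclins with Rapalink-1 all lie below those with DMSO, and footprints of Cdkn1b all lie above them.

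Among the D-type cyclins, Ccnd1 (chr7:144929931-144939831 in GRCm38) had footprint levels of 36.7, 36.6 and 38.3 CPM with DMSO, 16.9, 16.9 and 12.8 CPM with Rapalink-1, and 37.3, 29.1 and 30.2 CPM with rapamycin. The Rapalink-1 values lay far below the other groups, and the rapamycin values overlapped those of DMSO. The RNA levels of Ccnd1 were 18.04, 17.9 and 17.5 CPM with DMSO, 12.0, 11.2 and 13.6 CPM with Rapalink-1, and 16.9, 16.1 and 15.9 CPM with rapamycin. RNA was thus lower with Rapalink-1 in every replicate, by a smaller step than the footprints. The log2 fold change with Rapalink-1 was -1.25 ± 0.11 (SE; adjusted p = 3e-12) for footprints and -0.54 ± 0.12 (adjusted p = 0.00042) for RNA. With rapamycin it was -0.21 ± 0.10 (adjusted p = 0.16) and -0.13 ± 0.12 (adjusted p = 0.47), and neither passed. Without rapamycin replicate 1, the fall of Ccnd1 footprints with rapamycin passed at -0.33 (adjusted p = 0.044).

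Ccnd3 (chr17:47505051-47599689) encodes cyclin D3, which also partners CDK4 and CDK6. Its footprint levels were 45.4, 44.7 and 44.7 CPM with DMSO, 22.1, 19.9 and 19.3 CPM with Rapalink-1, and 45.4, 44.1 and 38.4 CPM with rapamycin. Its RNA levels were 25.5, 26.8 and 23.9 CPM with DMSO, 19.7, 17.8 and 19.5 CPM with Rapalink-1, and 23.7, 21.4 and 21.2 CPM with rapamycin. As for Ccnd1, the Rapalink-1 groups stood clear of DMSO in both assays. The log2 fold change was -1.13 ± 0.09 (adjusted p = 3.1e-13) for footprints and -0.42 ± 0.10 (adjusted p = 0.001) for RNA. With rapamycin, footprints overlapped DMSO (-0.08 ± 0.08, adjusted p = 0.58), and RNA lay just below DMSO without passing the test (-0.21 ± 0.10, adjusted p = 0.14).

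Translational efficiency, the footprint change less the RNA change, fell for both D-type cyclins with Rapalink-1. It changed by -0.67 ± 0.17 (log2; adjusted p = 0.00092) for Ccnd1 and by -0.67 ± 0.14 (adjusted p = 7.9e-05) for Ccnd3. The ratio of footprint to RNA CPM joins libraries by replicate number. Total RNA came from a portion of each lysate and library names repeat the number, but no label states that equal numbers share a lysate. In DMSO cells this ratio for Ccnd1 was 2.03, 2.05 and 2.19, and with Rapalink-1 it was 1.41, 1.51 and 0.943. Replicate 3 was the lowest of these and set the spread of the group. For Ccnd3 the ratio was 1.78, 1.67 and 1.87 with DMSO, and 1.12, 1.12 and 0.99 with Rapalink-1. The log2 ratio of Ccnd1 to Ccnd3 efficiency differed between Rapalink-1 and DMSO by -0.01 (exact permutation test, two-sided, p = 1, adjusted p = 1 over 6 tests), a test in which 3 against 3 ratios can reach no p below 0.1. The efficiency changes under library totals without TMM shrank to -0.30 for both genes and no longer passed (adjusted p = 0.12 for Ccnd1 and 0.059 for Ccnd3), while the median of all genes moved up by 0.37. Over 19 settings in all, the value for Ccnd1 ran from -0.79 to -0.30 with adjusted p from 0.00044 to 0.12.

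The E-type cyclins activate CDK2 at the start of S phase. Ccne1 (chr7:38097984-38107490) fell in RNA and in footprints by about the same amount with Rapalink-1, and Ccne2 (chr4:11190433-11204779) fell far more in footprints than in RNA. Footprint levels of Ccne1 were 36.8, 40.4 and 39.2 CPM with DMSO, 20.3, 21.9 and 19.4 CPM with Rapalink-1, and 35.2, 35.1 and 33.9 CPM with rapamycin. Its RNA levels were 38.4, 37.3 and 40.5 CPM with DMSO, 20.7, 23.1 and 21.5 CPM with Rapalink-1, and 30.9, 32.0 and 28.1 CPM with rapamycin. The RNA groups were thus in 3 separate steps, DMSO above rapamycin above Rapalink-1. With Rapalink-1 the log2 fold change of Ccne1 was -0.91 ± 0.09 (adjusted p = 1.1e-10) for footprints and -0.83 ± 0.09 (adjusted p = 7.9e-10) for RNA, which left an efficiency change of -0.04 ± 0.13 (adjusted p = 0.83, 95% interval -0.30 to 0.22). Under library totals without TMM this efficiency change was 0.33 (adjusted p = 0.029), which is close to the shift of all genes under that scaling.

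Footprint levels of Ccne2 were 107, 101 and 106 CPM with DMSO, 42.1, 42.5 and 47.9 CPM with Rapalink-1, and 87.3, 72.4 and 88.2 CPM with rapamycin. Its RNA levels were 117, 102 and 125 CPM with DMSO, 88.0, 94.1 and 83.0 CPM with Rapalink-1, and 86.4, 89.8 and 80.7 CPM with rapamycin. RNA was lowered to a like level by both drugs, while footprints fell farther with Rapalink-1 than with rapamycin. The log2 fold change with Rapalink-1 was -1.25 ± 0.08 (adjusted p = 4.5e-17) for footprints, -0.37 ± 0.07 (adjusted p = 1.6e-05) for RNA and -0.83 ± 0.11 (adjusted p = 5.2e-09) for efficiency. The footprint to RNA ratio of Ccne2 went from 0.915, 0.984 and 0.848 with DMSO to 0.479, 0.452 and 0.578 with Rapalink-1. With rapamycin, footprints changed by -0.34 ± 0.07 (adjusted p = 0.00061) and RNA by -0.42 ± 0.07 (adjusted p = 6.6e-06), and the efficiency change was 0.08 ± 0.10 (adjusted p = 0.67). The difference between both genes in the efficiency change with Rapalink-1 was -0.79 log2 units, Ccne2 below Ccne1, and the groups of 3 ratios did not overlap (exact permutation test, two-sided, p = 0.1, the smallest possible, adjusted p = 0.2 over 6 tests). The annotated span of Ccne2 shares 5622 bases with Ints8, and the strand used in counting is not given in the sources used here. Spans also overlap for Ccnd1 (818 bases, LTO1), Ccnd3 (359, Bysl), Rb1 (2468, Lpar6) and Cdk4 (2, Tspan31).

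**Figure D2:**
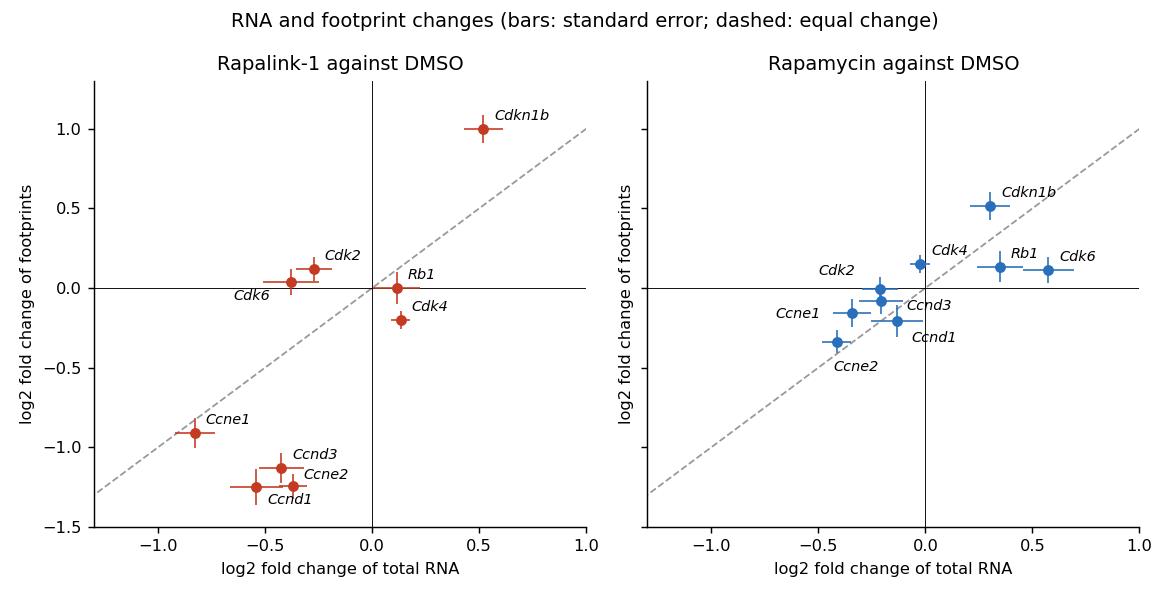
Log2 fold change of total RNA (horizontal) against that of footprints (vertical) for the 9 genes, with Rapalink-1 on the left and rapamycin on the right, each against the same DMSO libraries. Bars are standard errors and the dashed line marks equal change; with Rapalink-1, Ccnd1, Ccnd3 and Ccne2 lie below the line, Ccne1 lies on it within its error, and Cdkn1b lies above it.

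Cdkn1b (chr6:134920401-134925525) was the only one of the 9 genes called higher in footprints with Rapalink-1 under TMM scaling, and it rose with both drugs. Its footprint levels were 29.3, 24.7 and 28.7 CPM with DMSO, 50.6, 57.2 and 59.4 CPM with Rapalink-1, and 39.3, 42.2 and 37.7 CPM with rapamycin. Its RNA levels were 23.2, 26.3 and 24.7 CPM with DMSO, 33.7, 35.4 and 37.5 CPM with Rapalink-1, and 28.6, 32.5 and 30.2 CPM with rapamycin. In both assays the 3 groups did not overlap, with rapamycin between DMSO and Rapalink-1. The log2 fold change with Rapalink-1 was 1.00 ± 0.09 (adjusted p = 2.5e-12) for footprints, 0.52 ± 0.09 (adjusted p = 1.3e-05) for RNA and 0.52 ± 0.13 (adjusted p = 0.00085) for efficiency. With rapamycin it was 0.52 ± 0.09 (adjusted p = 5.2e-05) for footprints and 0.30 ± 0.09 (adjusted p = 0.015) for RNA, and the efficiency change of 0.22 ± 0.13 did not pass (adjusted p = 0.29). The RNA rise with rapamycin lost its call without DMSO replicate 1 (0.25, adjusted p = 0.096) and without rapamycin replicate 2 (0.25, adjusted p = 0.1).

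The kinases that these cyclins activate showed no common change. Cdk4 (chr10:127063535-127067288) had 355, 400 and 357 CPM of RNA with DMSO, 401, 404 and 415 CPM with Rapalink-1, and 366, 370 and 358 CPM with rapamycin. Its footprint levels were 220, 256 and 246 CPM with DMSO, 210, 207 and 210 CPM with Rapalink-1, and 272, 264 and 264 CPM with rapamycin. DMSO replicate 2 had the highest RNA and footprints of its group, and the footprint groups did not overlap, with DMSO between the drugs. With Rapalink-1, RNA changed by 0.13 ± 0.05 (adjusted p = 0.019), footprints by -0.20 ± 0.06 (adjusted p = 0.003) and efficiency by -0.29 ± 0.08 (adjusted p = 0.0013), and under library totals without TMM all 3 turned in sign and did not pass, at -0.003 (adjusted p = 0.96), 0.07 (0.27) and 0.08 (0.38). The median efficiency change of all genes under that scaling was 0.43, and Cdk4 lay below it. Leaving out DMSO replicate 1 ended the RNA call (0.10, adjusted p = 0.14), as did leaving out DMSO replicate 3 (0.11, adjusted p = 0.078) or Rapalink-1 replicate 3 (0.12, adjusted p = 0.076). The rise of Cdk4 footprints with rapamycin, 0.15 ± 0.06, stood at an adjusted p of 0.052 and passed without DMSO replicate 2 (0.20, adjusted p = 0.026) or DMSO replicate 3 (0.17, adjusted p = 0.035) and under library totals without TMM (0.20, adjusted p = 0.0096), and its efficiency change of 0.18 (adjusted p = 0.092) passed without DMSO replicate 3 (0.22, adjusted p = 0.035) and under those totals (0.22, adjusted p = 0.032).

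Cdk6 (chr5:3341004-3531008) was the gene whose RNA the drugs moved in opposite directions. Its RNA levels were 16.8, 16.3 and 14.1 CPM with DMSO, 13.2, 11 and 12.3 CPM with Rapalink-1, and 25.3, 20.5 and 25.5 CPM with rapamycin. Its footprint levels were 50.0, 59.2 and 47.4 CPM with DMSO, 53.2, 53.2 and 53.3 CPM with Rapalink-1, and 55.9, 53.0 and 59.0 CPM with rapamycin. RNA thus fell into 3 separate groups, and the footprint groups overlapped. RNA fell with Rapalink-1 (-0.38 ± 0.13, adjusted p = 0.017) and rose with rapamycin (0.58 ± 0.12, adjusted p = 0.0003), and the direct contrast of the drugs, whose doses differ, gave -0.95 ± 0.12 (adjusted p = 1.8e-08). Footprint changes were 0.04 (95% interval -0.12 to 0.20) with Rapalink-1 and 0.11 (95% interval -0.05 to 0.27) with rapamycin, and under library totals without TMM the former was 0.31 (adjusted p = 0.0014). Efficiency therefore moved against RNA, by 0.46 ± 0.15 (adjusted p = 0.0086) with Rapalink-1 and by -0.46 ± 0.14 (adjusted p = 0.016) with rapamycin. Cdk6 held the lowest count of the 9 genes, 99 RNA reads in 1 library, and some of its calls rested on single libraries. The RNA fall with Rapalink-1 was lost without DMSO replicate 1 (-0.33, adjusted p = 0.079) or Rapalink-1 replicate 2 (-0.31, adjusted p = 0.092), and the efficiency rise without the same libraries (0.39, adjusted p = 0.065 and 0.054). The efficiency fall with rapamycin was lost without DMSO replicate 2 (-0.39, adjusted p = 0.081) or rapamycin replicate 1 (-0.41, adjusted p = 0.08).

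MYC proteins, MYCN among them, bind the E-box CACGTG, and the promoters of Cdk4 and Cdk6 are shown because, of the 6 genes of the set with a RefSeq promoter entry, these hold that motif. The motif reads the same on both strands and was searched in the 250 bases before the RefSeq start (GRCm38.p6). The sequences run 5′ to 3′ on the plus strand up to the base before the start, with the motif in capitals.
Cdk4, chr10:127063285-127063534: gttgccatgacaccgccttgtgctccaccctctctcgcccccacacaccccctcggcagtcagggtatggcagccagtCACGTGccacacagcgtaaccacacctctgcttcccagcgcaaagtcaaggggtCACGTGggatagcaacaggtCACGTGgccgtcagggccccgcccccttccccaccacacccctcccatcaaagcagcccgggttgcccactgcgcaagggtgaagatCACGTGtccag
Cdk6, chr5:3343643-3343892: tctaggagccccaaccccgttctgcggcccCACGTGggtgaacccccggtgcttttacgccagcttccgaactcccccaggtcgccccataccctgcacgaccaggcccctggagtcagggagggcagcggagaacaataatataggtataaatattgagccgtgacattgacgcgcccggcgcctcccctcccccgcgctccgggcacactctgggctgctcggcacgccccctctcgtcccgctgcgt
The Cdk4 promoter held 4 matches, whose first bases lay 172, 118, 98 and 11 bases upstream of the start. That of Cdk6 held 1 match, 220 bases upstream of the start used for it. This Cdk6 window lies inside the gene span given above, so that start is not the first base of the span. At least 1 match was present in 6.02% of the 32851 promoters of that length, and at least 4 in 7 of them (0.021%). The entries of Ccnd3, Ccne1, Cdk2 and Cdkn1b held none in this window. A match describes the letters and is not a measured binding site.

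Cdk2 (chr10:128697938-128705051), the partner of the E-type cyclins, had RNA levels of 37.5, 38.2 and 38.9 CPM with DMSO, 30.0, 32.3 and 32.5 CPM with Rapalink-1, and 31.2, 33.2 and 34.4 CPM with rapamycin. Its footprint levels were 54.9, 56.1 and 53.6 CPM with DMSO, 61.5, 56.8 and 60.1 CPM with Rapalink-1, and 52.2, 59.4 and 52.4 CPM with rapamycin. RNA was lower in all 6 drug libraries than in the 3 DMSO libraries, while footprints with Rapalink-1 lay just above DMSO and those with rapamycin overlapped it. With Rapalink-1, RNA changed by -0.27 ± 0.08 (adjusted p = 0.0085), footprints by 0.12 ± 0.08 (adjusted p = 0.18) and efficiency by 0.43 ± 0.11 (adjusted p = 0.0011). Without Rapalink-1 replicate 1 the RNA change was -0.24 (adjusted p = 0.056), and under library totals without TMM the footprint change was 0.39 (adjusted p = 3.1e-05). The rapamycin change of RNA, -0.21 ± 0.09, did not pass (adjusted p = 0.063). The whole annotated span of Cdk2, 7114 bases, is shared with Pmel, so reads of both genes may not be separable in these counts.

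Rb1 (chr14:73192858-73325951), whose protein the G1 kinases phosphorylate, had footprint levels of 33.1, 29.0 and 29.9 CPM with DMSO, 29.4, 35 and 28.7 CPM with Rapalink-1, and 34.3, 29.8 and 37.3 CPM with rapamycin. Its RNA levels were 18.7, 21.3 and 18.7 CPM with DMSO, 20.3, 22.8 and 20.7 CPM with Rapalink-1, and 25.6, 22.8 and 26.8 CPM with rapamycin. The footprint groups overlapped, and RNA with rapamycin lay above every DMSO value. With Rapalink-1 the footprint change was 0.001 (95% interval -0.20 to 0.21), and under library totals without TMM it was 0.27 (adjusted p = 0.02). The RNA rise with rapamycin was 0.35 ± 0.11 (adjusted p = 0.014), and it was lost without DMSO replicate 1 (0.31, adjusted p = 0.074), rapamycin replicate 1 (0.33, adjusted p = 0.051) or rapamycin replicate 3 (0.30, adjusted p = 0.081).

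**Figure D3:**
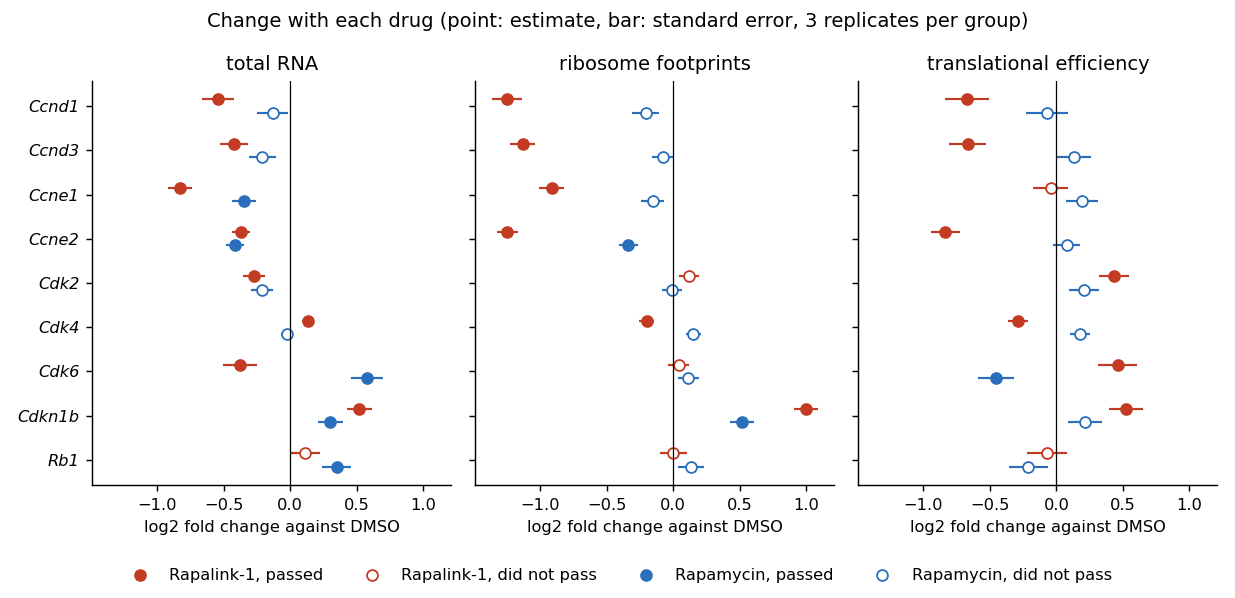
Log2 fold change against DMSO of total RNA, footprints and translational efficiency for the 9 genes, red for Rapalink-1 and blue for rapamycin. Points are estimates from 3 replicates per group, bars are standard errors, and filled points passed at an adjusted p under 0.05. With Rapalink-1, 8 of 9 genes passed in RNA and 7 in efficiency, and with rapamycin 5 and 1.

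In total RNA, 8 of the 9 genes were called with Rapalink-1, 2 higher and 6 lower, against 38.2% of all genes (19.4% higher and 18.8% lower), and the groups of 8 did not overlap, against 46.1% of all genes. The median RNA change was -0.37 over the 9 genes and 0.002 over all genes. The 6 lower genes were the 4 cyclins, Cdk2 and Cdk6. Under library totals without TMM the split was 1 higher and 6 lower, beside 4854 of 11271 genes called in all. In translational efficiency, 7 of the 9 were called, 3 higher and 4 lower, against 42.2% of all genes (22.3% higher and 19.9% lower), and the groups of 7 did not overlap, against 49.1%. Ccnd1, Ccnd3, Ccne2 and Cdk4 were lower and Cdk2, Cdk6 and Cdkn1b higher. The split under library totals without TMM was 4 higher and 1 lower, with Ccne2 as the gene that stayed lower (-0.465, adjusted p = 0.00032). In efficiency that scaling called 6404 of 10988 genes, with a median of 0.43.

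**Figure D4:**
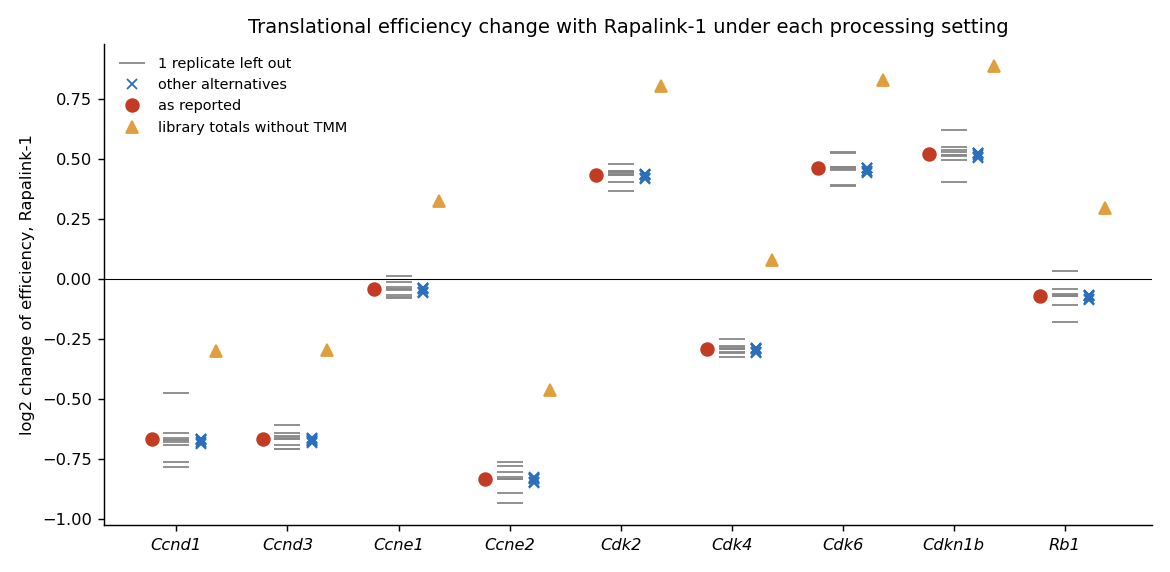
Log2 change of translational efficiency with Rapalink-1 for each of the 9 genes under each processing setting: as reported (circle), with 1 replicate left out (dashes), with other alternatives (crosses) and with library totals without TMM (triangle). Library totals raise all 9 values by about the shift of the median of all genes, 0.37, and turn Ccne1, Cdk4 and Rb1 from below 0 to above 0.

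With rapamycin fewer of the 9 genes were called, which also held for all genes. In RNA 5 were called, Cdk6, Cdkn1b and Rb1 higher and Ccne1 (-0.35 ± 0.09, adjusted p = 0.0033) and Ccne2 lower, against 24.1% of all genes (13.6% higher and 10.5% lower), and 8 did not overlap, against 35.6%. In footprints 2 were called, Cdkn1b higher and Ccne2 lower, against 18.1% of all genes (8.75% higher and 9.4% lower), and 4 did not overlap, against 31.4%. In efficiency 1 was called, Cdk6 lower, against 16.4% of all genes (6.52% higher and 9.85% lower), and 4 did not overlap, against 31.1%. Under library totals without TMM the footprint calls were 2 higher and 1 lower and the efficiency calls 1 higher and 1 lower. That scaling called 2045 of 11281 genes in footprints and 1776 of 10988 in efficiency. Both drugs were compared with the same DMSO libraries, so their changes are not independent of each other.

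The direct contrast of the drugs sets 50 nM Rapalink-1 against 5 nM rapamycin, and dose and compound cannot be told apart in it. Names of the rapamycin footprint libraries also carry another tag (RP, against RP-B), whose meaning is not stated. Footprints of the 4 cyclins and Cdk4 were lower with Rapalink-1 and those of Cdkn1b higher, 6 of 9 genes called against 53.1% of all genes (25.4% higher and 27.6% lower), and 6 did not overlap, against 59.5%. The log2 differences in footprints were -1.05 ± 0.11 for Ccnd1 (adjusted p = 2.9e-10), -1.05 ± 0.09 for Ccnd3 (adjusted p = 1.8e-12), -0.76 ± 0.09 for Ccne1 (adjusted p = 7.7e-09) and -0.91 ± 0.08 for Ccne2 (adjusted p = 6.7e-13). For Cdk4 the difference was -0.35 ± 0.06 (adjusted p = 1.4e-06), and for Cdkn1b 0.48 ± 0.08 (adjusted p = 5.8e-06). Intervals for the other genes were -0.02 to 0.28 for Cdk2, -0.23 to 0.09 for Cdk6 and -0.33 to 0.06 for Rb1 (95%). In RNA, Ccnd1 (-0.41 ± 0.12), Ccne1 (-0.48 ± 0.09) and Cdk6 were lower and Cdk4 (0.16 ± 0.05) and Cdkn1b (0.22 ± 0.09) higher with Rapalink-1, 5 genes against 41.1% of all (19.6% higher and 21.5% lower), and 7 did not overlap, against 52.2%. For Ccne2 RNA the difference was 0.04 (95% interval -0.09 to 0.18).

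In efficiency, 6 of the 9 differed between the drugs, 2 higher and 4 lower, against 50.1% of all genes (26.1% higher and 23.9% lower), and 8 did not overlap, against 56.8%. The lower ones were Ccnd1 (-0.60 ± 0.17, adjusted p = 0.0022), Ccnd3 (-0.80 ± 0.14, adjusted p = 2.3e-06), Ccne2 (-0.91 ± 0.11, adjusted p = 3.4e-10) and Cdk4 (-0.47 ± 0.07, adjusted p = 4.4e-07). The higher ones were Cdk6 (0.92 ± 0.14, adjusted p = 1.6e-07) and Cdkn1b (0.31 ± 0.12, adjusted p = 0.033). The Ccnd1 difference was lost without Rapalink-1 replicate 3 (-0.41, adjusted p = 0.06), the replicate with the low ratio. For Cdkn1b the RNA difference (adjusted p = 0.045) was lost without Rapalink-1 replicate 2 or 3 or rapamycin replicate 1 or 3 (0.18 to 0.22, adjusted p = 0.09, 0.16, 0.18 and 0.1), and in DESeq2 (0.22, adjusted p = 0.073) or with no count filter (0.22, adjusted p = 0.054). Its efficiency difference was lost without Rapalink-1 replicate 2 or 3 or rapamycin replicate 2 or 3 (0.28 to 0.30, adjusted p = 0.094, 0.072, 0.084 and 0.091). Under library totals without TMM the splits were 2 higher and 5 lower in footprints, 6 lower in RNA, and 4 higher and 2 lower in efficiency. Among all genes that scaling called 6809 of 11281 in footprints, 5019 of 11271 in RNA and 6375 of 10988 in efficiency. In RNA, Cdk4 (0.02, adjusted p = 0.82) and Cdkn1b (0.08, adjusted p = 0.52) then did not pass. In efficiency, Ccnd1 (-0.28, adjusted p = 0.16) and Cdk4 (-0.15, adjusted p = 0.091) did not pass.

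With DMSO alone the genes differed in their ratio of footprint to RNA CPM. The mean ratio of footprint to RNA CPM with DMSO was 3.32 ± 0.33 (SD, n = 3) for Cdk6, 2.09 ± 0.08 for Ccnd1, 1.77 ± 0.10 for Ccnd3, 1.58 ± 0.21 for Rb1 and 1.44 ± 0.05 for Cdk2. It was 1.12 ± 0.17 for Cdkn1b, 1.00 ± 0.07 for Ccne1, 0.915 ± 0.068 for Ccne2 and 0.649 ± 0.037 for Cdk4. The span over which each assay was counted is not given, so the ratio compares a gene with itself across treatments more safely than genes with each other. Cdk6 stood at percentile 94.6 of 10988 genes and Cdk4 at 23.4, and the 3 ratios of Cdk6, Ccnd1 and Cdk4 did not overlap with those of any other of the 9 genes. Ccnd3 and Rb1, Rb1 and Cdk2, Cdkn1b and Ccne1, and Ccne1 and Ccne2 were neighbours whose ratios overlapped. With Rapalink-1 the ratio was 4.01, 4.84 and 4.34 for Cdk6 and 0.523, 0.512 and 0.506 for Cdk4, farther apart than with DMSO. With rapamycin it was 2.21, 2.59 and 2.31 for Cdk6 and 0.742, 0.714 and 0.737 for Cdk4, closer together. The log2 distance of Cdk4 from Cdk6 changed by -0.74 with Rapalink-1 and by 0.66 with rapamycin (exact permutation tests, two-sided, p = 0.1 each, the smallest possible, adjusted p = 0.2).

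**Figure D5:**
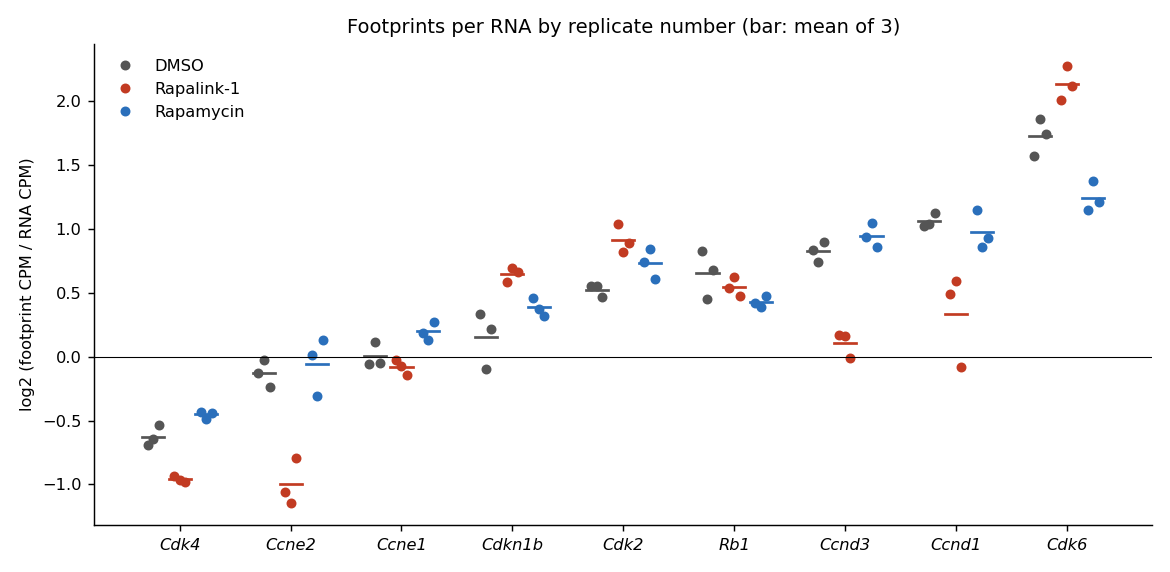
Log2 ratio of footprint to RNA CPM for each of the 9 genes, with libraries joined by replicate number, ordered by the DMSO mean. Points are the 3 ratios of each treatment and bars their means; Ccnd1, Ccnd3 and Ccne2 drop with Rapalink-1, with 1 Ccnd1 value below the other 2, and Cdk6 moves up with Rapalink-1 and down with rapamycin.

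Genes around this core were counted in 3 lists, to be read beside the shares of all genes called. With Rapalink-1 these shares were 53.7% in footprints, 38.2% in RNA and 42.2% in efficiency, and with rapamycin 18.1%, 24.1% and 16.4%. Under library totals without TMM, Rapalink-1 gave 6987 of 11281 genes called in footprints, 4854 of 11271 in RNA and 6404 of 10988 in efficiency. The medians of all genes were then 0.28, -0.135 and 0.43, and list counts under that scaling carry this shift. Of 14 other CDK inhibitors, pocket proteins and G1/S activators, 11 were tested, and with Rapalink-1 4 rose and 2 fell in footprints, 2 rose and 1 fell in RNA, and 2 rose and 1 fell in efficiency. The 6 of 11 called in footprints are near the 53.7% of all genes, and the 3 of 11 in RNA and in efficiency lie under the 38.2% and 42.2%. Cdkn2c, which encodes the CDK4 and CDK6 inhibitor p18, rose in efficiency by 0.93 ± 0.19 (adjusted p = 7.3e-05) with an RNA change of 0.01 (adjusted p = 0.94), and its footprints rose by 0.90 ± 0.17 (adjusted p = 2.3e-05). Cdc25a, the phosphatase that activates CDK2, fell in RNA by 0.88 and in footprints by 0.52 on the log2 scale (adjusted p = 1.8e-15 and 1.7e-07), and its efficiency changed by 0.40 ± 0.10 (adjusted p = 0.00073). Ccna2, the S-phase cyclin A2, changed in efficiency by -0.22 ± 0.07 (adjusted p = 0.0076). The change of Ccna2 turned in sign under library totals without TMM (0.15, adjusted p = 0.053) and lost its call without DMSO replicate 1 (-0.17, adjusted p = 0.059) or Rapalink-1 replicate 2 (-0.19, adjusted p = 0.058). With rapamycin the list had 3 genes higher in footprints, 3 higher and 1 lower in RNA, and 2 higher in efficiency. Its median efficiency change with Rapalink-1 was 0.11, beside 0.06 over all genes. Its calls with Rapalink-1 under library totals without TMM were 8 higher and 1 lower in footprints, 3 lower in RNA and 8 higher in efficiency.

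Of 16 genes for the turnover of G1 cyclins and p27, 15 were tested. With Rapalink-1, 3 rose and 5 fell in footprints, 3 rose and 7 fell in RNA, and 5 rose and 3 fell in efficiency. That is 8, 10 and 8 of 15 called, beside 53.7%, 38.2% and 42.2% of all genes. Gsk3b, a kinase that marks cyclin D1 for export and degradation, changed in efficiency by 0.99 ± 0.13 (adjusted p = 4.9e-09), with footprints up by 0.55 (adjusted p = 7e-09) and RNA changed by -0.40 (adjusted p = 0.0059). Fbxw7, the ubiquitin ligase subunit that recognises cyclin E, changed in efficiency by 0.85 ± 0.20 (adjusted p = 0.00035) and in RNA by -0.63 ± 0.10 (adjusted p = 1.2e-06), and its footprint change of 0.18 did not pass (adjusted p = 0.44). In the other direction, Fbxo31, a ligase subunit for cyclin D1, changed in efficiency by -0.72 ± 0.12 (adjusted p = 1.7e-06), and Ddb1, an adaptor of CUL4 ligases, by -0.50 ± 0.06 (adjusted p = 3.2e-09). RNA of both rose, by 0.53 for Fbxo31 (adjusted p = 1.7e-07) and by 0.54 for Ddb1 (adjusted p = 3.3e-14). Their footprint changes were -0.24 ± 0.09 for Fbxo31 (adjusted p = 0.028) and -0.01 ± 0.05 for Ddb1 (adjusted p = 0.88). Under library totals without TMM these footprint changes were 0.04 (adjusted p = 0.74) and 0.26 (adjusted p = 3.2e-05). With rapamycin, 3 of the 15 were higher in footprints, 5 higher and 1 lower in RNA, and 1 higher and 1 lower in efficiency. The median efficiency change with Rapalink-1 was 0.14, beside 0.06 over all genes. The list's calls with Rapalink-1 under library totals without TMM were 10 higher in footprints, 3 higher and 9 lower in RNA, and 10 higher and 1 lower in efficiency. Over all genes, 6987, 4854 and 6404 were called under that scaling. Ddb1 no longer passed in efficiency (-0.14, adjusted p = 0.071).

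All 20 E2F factors and classic E2F targets were tested. With Rapalink-1, 10 rose and 2 fell in footprints, 7 rose and 5 fell in RNA, and 7 rose and 3 fell in efficiency. That is 12, 12 and 10 of 20 called, beside 53.7%, 38.2% and 42.2% of all genes. The list's median was 0.15 in footprints and 0.20 in efficiency, beside 0.01 and 0.06 over all genes. E2f6, which encodes a repressor, changed in efficiency by 0.98 ± 0.17 (adjusted p = 6.7e-06). Its footprints changed by 0.45 ± 0.13 (adjusted p = 0.0032) and its RNA by -0.49 ± 0.12 (adjusted p = 0.00077). Pcna, the sliding clamp of DNA polymerase, changed in efficiency by 0.48 ± 0.07 (adjusted p = 7.6e-08) with RNA at -0.01 (adjusted p = 0.93). Rrm2, a subunit of ribonucleotide reductase, changed in efficiency by -0.72 ± 0.07 (adjusted p = 6.8e-12) with RNA at 0.07 (adjusted p = 0.35). E2f4, which acts with the pocket proteins in quiescent cells, fell in footprints by 1.57 and in RNA by 0.91 on the log2 scale (adjusted p = 1.1e-17 and 1.6e-07), and its efficiency changed by -0.62 ± 0.17 (adjusted p = 0.003). With rapamycin, 4 were higher and 3 lower in footprints, 3 and 2 in RNA, and 4 and 2 in efficiency. Under library totals without TMM the calls with Rapalink-1 were 16 higher and 2 lower in footprints, 4 and 9 in RNA, and 16 and 1 in efficiency. That scaling called 6987 of 11281 genes in footprints and 6404 of 10988 in efficiency, with medians of 0.28 and 0.43. E2f4 no longer passed in efficiency (-0.25, adjusted p = 0.19).

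The genes whose pattern over the 18 libraries was most like that of a G1 gene were ranked by the root mean square difference of log2 CPM, each gene centred on its DMSO mean in each assay, among 6091 genes with a mean log2 CPM of at least 4 in both assays. For Ccnd1, which itself lay just under that level in RNA at 3.98, the nearest gene was Ccnd3 at 0.13 log2 units, followed by Twf1 (0.149) and Foxk2 (0.151). For Ccnd3 the nearest were Sdf2l1 (0.107), Foxk2 (0.109) and Surf4 (0.11). Neighbours were picked for a like pattern in these same libraries, so a like change with each drug follows from the choice. With Rapalink-1, footprints of the neighbours of Ccnd1 and Ccnd3 changed by between -1.25 (Twf1) and -1.004 (Surf4). Their efficiency changed by between -0.68 (Surf4) and -0.58 (Sdf2l1). For Cdkn1b the nearest were Tle4 (0.127), Pnpla8 (0.128) and Otx2 (0.129), a homeobox gene of brain development, with footprint changes of 1.02, 0.94 and 1.11 with Rapalink-1 and 0.49, 0.49 and 0.43 with rapamycin.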

How the data were processed

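Ribosome footprints and total RNA were measured in 9 libraries each. Total RNA came from a portion of each lysate, and the ARTseq kit was used for RNA and footprint libraries alike, per the labels' protocols. The genome build was GRCm38 (mm10), per the submitters' processing notes; the sources used here do not give the aligner, counting program, counted span or strand. Count values are whole read counts per transcript as deposited by the authors. The authors' comparison tables supplied gene symbols and hold signal (mean normalized counts), log2 (fold change and its error), score (test statistic) and p-value columns as deposited by the authors.

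The 27382 transcript rows (6378 without any read) were merged by gene or equal counts into 15307 features, of which 9787 had a name. Genes that passed filterByExpr (minimum count 10, minimum total 15) were tested: 11271 in RNA, 11281 in footprints and 10988 in translational efficiency. edgeR 4.0.16 (R 4.3.3, TMM, robust quasi-likelihood fit) was run on the 9 libraries of each assay, and on all 18 for efficiency, the interaction of assay and treatment. P-values were adjusted by Benjamini-Hochberg over all genes. Variation between replicates beyond counting noise (edgeR's BCV) came to 5.72% for RNA, 6.38% for footprints and 6.05% for efficiency. It may be technical here. Each standard error is the fold change divided by the root of F. The fit was tested on simulated counts. The 18 alternatives included DESeq2 1.42.0, other scalings, no filter, blocks and leaving out each replicate. Pattern likeness used a pseudocount of 0.5 CPM. The pathway genes named are the 2 largest called rises and the 2 largest called falls in efficiency with Rapalink-1 in each list. The genes and lists were chosen with earlier results of these data known. RefSeq supplied promoters and gene spans (GRCm38.p6).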

Additional observations from a re-analysis of the deposited data

How the results depend on the processing

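Of 1404 values of the 9 genes under the alternatives, 1327 kept their direction and their side of the threshold, 32 lost a call, 18 gained one and 27 changed sign, of which 4 were called before or after and 23 were called in neither. DESeq2 size factors, TMM without ribosomal protein genes and fits of only the treatments compared changed no call of the 9 genes. The sum of distinct transcript rows is no check on them, because each had only 1 distinct row of counts. Its 81 values are among those that kept their direction and side. The 4 sign changes with a call came with library totals without TMM, which moved the median of all genes by 0.27 in footprints, -0.14 in RNA and 0.37 in efficiency with Rapalink-1 against DMSO: Ccne1 efficiency 0.326, and Cdk4 footprints 0.074, RNA -0.003 and efficiency 0.078. Without a call, that scaling turned Rb1 RNA (-0.022) and efficiency (0.296) with Rapalink-1, Cdk2 footprints with rapamycin (0.045), and between the drugs Ccne1 efficiency (0.09), Ccne2 RNA (-0.099), Cdk6 footprints (0.148) and Rb1 footprints (0.088). Rb1 footprints with Rapalink-1, reported as 0.001, were -0.007 with TMM without ribosomal protein genes and -0.008 with no count filter. Leaving out 1 replicate turned uncalled values within ranges of -0.078 to 0.011 (Ccne1 efficiency, Rapalink-1), -0.004 to 0.087 (Ccne2 RNA between the drugs), -0.012 to 0.206 (Ccne2 efficiency, rapamycin), -0.068 to 0.028 (Cdk2 footprints, rapamycin), -0.056 to 0.029 (Cdk4 RNA, rapamycin), -0.023 to 0.125 (Cdk6 footprints, Rapalink-1), -0.089 to 0.065 (Rb1 footprints, Rapalink-1) and -0.178 to 0.034 (Rb1 efficiency, Rapalink-1). Library totals without TMM called 2 of the 9 genes in efficiency with rapamycin, against 1 with TMM, beside 1776 and 1798 of all 10988 genes. Leaving out 1 replicate gave 3 to 5 genes called in RNA with rapamycin, with 3 without DMSO replicate 1. Calls over all genes fell there too, to 1992 from 2712 with all libraries. It gave 0 to 2 in efficiency with rapamycin, with 0 without DMSO replicate 2 (2 at an unadjusted p under 0.05) or rapamycin replicate 1 (1 at an unadjusted p under 0.05) and 2 without DMSO replicate 3; DESeq2 on all libraries called 1. Over all genes, efficiency calls with rapamycin numbered 1423 without DMSO replicate 2 and 1296 without rapamycin replicate 1. They numbered 1924 without DMSO replicate 3, beside 1798 with all libraries. In the other comparisons the counts of the 9 genes called stayed within 1.5 times those reported.

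The labels name no shared batch for a replicate number. Library names carry the tag RP-B for DMSO and Rapalink-1 footprints and RP for rapamycin footprints. What the tag stands for is not stated, and it cannot be told apart from the rapamycin treatment. Correlations of deviations between same-numbered samples ran from -0.181 to 0.052 in RNA and from -0.188 to 0.221 in footprints, where 8 of 9 were above 0 and the median was 0.117, against -0.068 for other numbers. Between RNA and footprints of 1 number they were 0.164 to 0.199 with DMSO, against -0.178 to -0.008 for other numbers. Over all treatments they were -0.086 to 0.199 for the same number. Since not every pair exceeded 0.1, the reported fits did not pair the samples by number. A replicate block raised the genes called in footprints with rapamycin from 2 to 3, by Cdk4 (0.15, adjusted p = 0.045 in edgeR), and left the other 8 counts as they were. Over all genes it raised the footprint calls with rapamycin from 2047 to 2166. A block that joins RNA and footprints of 1 treatment and number changed no efficiency call of the 9 genes. The protocols take total RNA from a portion of each lysate, though no label states that equal numbers share 1 lysate. Depth limited Cdk6 and Ccnd1 most, with 99 and 123 RNA reads in their lowest RNA libraries. The lowest count of Ccnd1 was in footprints, 118 reads in Rapalink-1 replicate 3.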

Other observations

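The authors' deposited table gave fold changes for the 9 genes against DMSO in RNA, footprints and efficiency for each drug, 54 values that differed from those of edgeR by at most 0.031 log2 units. At an adjusted p under 0.05, 51 of the 54 fell on the same side of the threshold. The 3 others were Cdk4 RNA with Rapalink-1, at an adjusted p of 0.0799 in the authors' deposited table and 0.019 in edgeR, Cdk2 RNA with rapamycin (0.0393 in the authors' deposited table and 0.063 in edgeR), and Cdk4 footprints with rapamycin (0.0155 in the authors' deposited table and 0.052 in edgeR).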
